A study of Saccharomyces cerevisiae with 24 samples.

Results

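The comparison described here set the respiratory yeast strain V5.TM6*P against its wild-type parent V5 at the lowest glucose concentrations sampled from batch cultures. Its members were chosen by the glucose concentration given for each sample: V5.TM6*P at 13.5 g/L and at 5.6 g/L, against V5 at 10.5 g/L and at 7.4 g/L. This made 4 of the 12 RNA samples of the series and 8 of its 24 arrays, with 2 RNA samples and 4 arrays for each strain. V5.TM6*P was derived from V5, a wine yeast with the genotype MATa ura3 gal, by deleting the hexose transporter genes HXT1 to HXT7 and integrating a gene for TM6*, a chimeric transporter joined from the amino-terminal part of Hxt1 and the carboxy-terminal part of Hxt7. Both strains had been made prototrophic with URA3. Both grew in bioreactors at pH 5 and 30 °C on medium that began with 50 g/L glucose. The other samples were taken at higher glucose and served for comparison: high glucose was 36.5 and 34.8 g/L in V5.TM6*P and 38.4 and 35 g/L in V5, and mid glucose was 26.3 and 25.1 g/L in V5.TM6*P and 25.5 and 24.4 g/L in V5. The question was which transcripts still separated the strains once little glucose was left. A pair of fermentations was run for each strain, and the labels do not say which one a sample came from, so the p-values below measure only the spread between these samples.

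Baker's yeast takes up glucose through a family of facilitative transporters encoded by the HXT genes. While glucose enters rapidly, the cell ferments it to ethanol through pyruvate decarboxylase and alcohol dehydrogenase, and it keeps the genes for respiration, gluconeogenesis and other carbon sources repressed. This glucose repression is relaxed when the sugar runs low, and the tricarboxylic acid (TCA) cycle, the respiratory chain and the pathways for glycerol, lactate, acetate and amino acids are then transcribed. A strain that takes up glucose slowly is a means to study these responses while glucose is still present in the medium.

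Transcripts were measured on filter arrays of yeast open reading frames with radiolabelled cDNA made from amplified RNA. Each value is the log2 of the background-subtracted spot signal relative to the median of all probes on the array, averaged over the 2 arrays of an RNA sample, so a value of 0 is the level of the middle probe. The 8 arrays had a median net intensity between 12.2 and 19.6 over a median local background between 12.1 and 31.5, in scanner units, and between 1.46% and 2.05% of spots lay under the floor of 0.1 on net intensity. The 2 arrays of a sample correlated over all probes at 0.749 and 0.826 for V5.TM6*P and at 0.792 and 0.831 for V5. The samples of a strain correlated at 0.881 in V5.TM6*P and 0.899 in V5, and samples of opposite strains at 0.850 to 0.893. Probes assigned to chromosome X had a median level of 0.21 and 0.19 in the V5.TM6*P samples, against 0.54 and 0.36 in the V5 samples, and their median log2 fold change was -0.27 at low, -0.23 at mid and -0.24 at high glucose, against -0.05, -0.02 and -0.07 over all probes. One of the 26 probes called at low glucose, SFC1, was on chromosome X. With each chromosome's median subtracted, 18 of the 26 calls remained, SFC1 among them, and STL1, SDH1, MDH2, HXT15 and IRS4 were the named genes lost.

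The deleted transporter genes were examined first. Named probes existed for 6 of them, and none passed the test at low glucose. HXT2, a high-affinity transporter gene, stood at -1.40 and -2.22 in V5.TM6*P against 0.12 and 0.19 in V5, a log2 fold change of -1.96 ± 0.36 (SE, adjusted p = 0.074). HXT4 stood at 0.02 and -0.14 in V5.TM6*P against 1.38 and 1.61 in V5, a log2 fold change of -1.56 ± 0.30 (adjusted p = 0.0799). For HXT3, both V5.TM6*P samples were at 5.36, against 6.03 and 6.53 in V5 (log2 fold change -0.92, adjusted p = 0.205). In these 3 genes both V5.TM6*P samples lay below both V5 samples, and HXT3, a close relative of HXT1, was still far above the array median in the strain that lacks it.

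The probes of HXT1, HXT6 and HXT7 differed less between the strains. HXT1 gave 4.02 and 3.89 in V5.TM6*P against 4.15 and 4.95 in V5, again without overlap (log2 fold change -0.59, adjusted p = 0.445). HXT6 gave 2.92 and 3.19 in V5.TM6*P, a range that overlapped the 2.66 and 3.22 of V5. HXT7 gave 7.87 and 7.85 in V5.TM6*P, which lay between the 7.56 and 8.13 of V5 (log2 fold change 0.01 ± 0.29, adjusted p = 0.991). The chimera carries sequence of HXT1 and HXT7, HXT6 and HXT7 are near-identical copies, and spotted DNA of whole reading frames does not separate such relatives, so these probes do not check the deletions. The HXT7 difference was 1.31 at mid and 1.43 at high glucose.

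At low glucose 26 of 6330 probes (0.411%) differed between the strains in limma's moderated test at an adjusted p under 0.05, 19 higher in V5.TM6*P (0.3% of all probes) and 7 lower (0.111%). All 26 differed at least 2-fold, both V5.TM6*P samples lay beyond both V5 samples in every one of them, and in 22 all 4 arrays of V5.TM6*P lay beyond all 4 of V5. Among all probes, whatever their p, the samples were apart upwards in 20.8% and downwards in 24.3%, all arrays in 5.04% and 5.91%, and 7.22% were at least 2-fold higher and 6.32% at least 2-fold lower. With only the 4 low-glucose samples in the fit no probe was called (578 had an unadjusted p under 0.05), so every call rests on a spread estimated together with the samples at higher glucose. The balance of directions rested on single samples too: without the 5.6 g/L sample of V5.TM6*P there were 16 calls higher and 53 lower, and without its 13.5 g/L sample 1 higher and 2 lower. Without adjustment 851 probes had a p under 0.05, 410 higher and 441 lower. A gene name could be given to 20 of the 26, of which 17 rose in V5.TM6*P and 3 fell. The names were matched through gene tables that the study drew from comparisons of these strains. All 20 named calls came from a table drawn with these low-glucose samples included, whereas 130 of the names came from one drawn without them. Of the 1052 named probes 1.9% were called, and the named genes are not independent evidence of a direction. An exact permutation test of 2 samples against 2 cannot go below a two-sided p of 0.333, so single genes were judged in the fit over all probes.

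**Figure D1:**
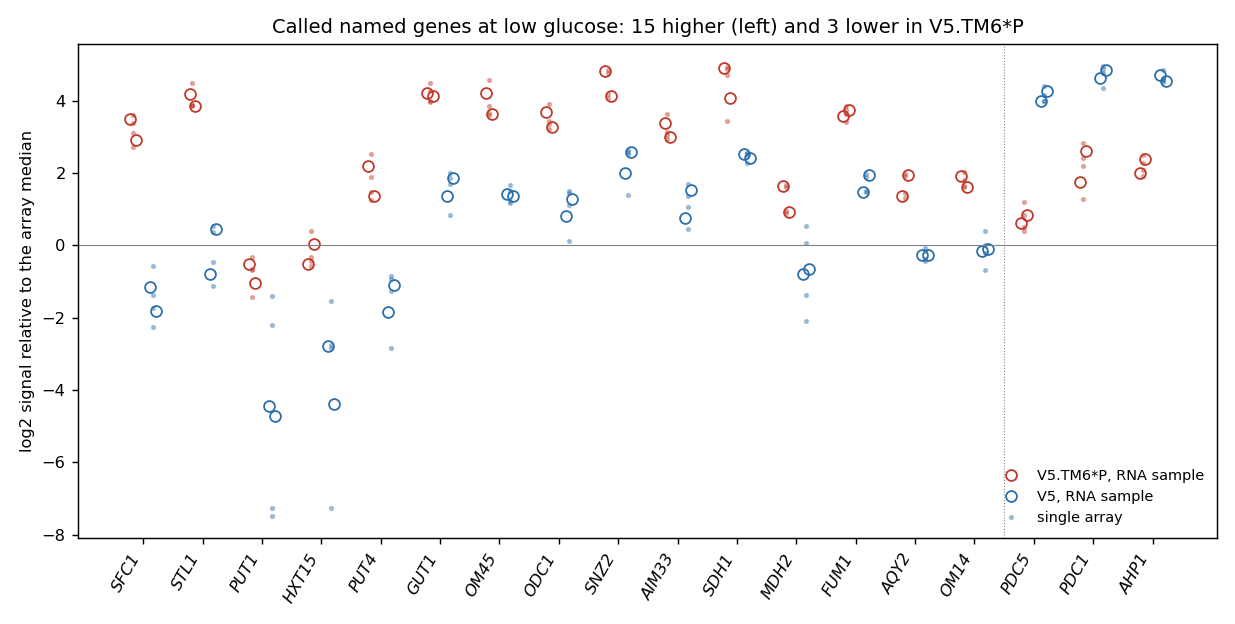
Log2 signal relative to the array median (vertical axis) of the 15 named genes with the largest rise and the 3 that fell in V5.TM6*P at low glucose. Open circles are RNA samples, 2 per strain (V5.TM6*P in red on the left of each gene, V5 in blue on the right), and small dots are single arrays. The circles of the strains do not overlap for any gene, while in PUT1 the highest V5 dot, at -1.39, lies above the lowest V5.TM6*P dot, at -1.44.

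The transporter SFC1, which exchanges succinate for fumarate across the inner mitochondrial membrane, rose most. It stood at 3.49 and 2.91 in V5.TM6*P against -1.15 and -1.82 in V5, a 25.7-fold difference (log2 fold change 4.68 ± 0.37, adjusted p = 0.00562). Its lowest V5.TM6*P array was at 2.72 and its highest V5 array at -0.57, so that the arrays did not overlap, and it lies on chromosome X, whose median ran the other way. A second inner-membrane carrier, ODC1, which moves 2-oxoglutarate and related dicarboxylates, gave 3.68 and 3.28 in V5.TM6*P against 0.80 and 1.28 in V5 (5.41-fold, adjusted p = 0.0426). The list of mitochondrial carriers held 15 named probes. SFC1 and ODC1 rose, where 0.3% of all probes were called higher, none fell and 13 did not pass the test. The list's median log2 fold change was 0.68, and the pyruvate carrier gene MPC3 (1.25, adjusted p = 0.179) and the porin gene POR1 (0.99, adjusted p = 0.0961) stood next in size.

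Of 3 genes for glycerol use, STL1 and GUT1 rose and GUT2 did not pass the test. STL1, a glycerol-proton symporter of the plasma membrane, stood at 4.19 and 3.86 in V5.TM6*P against -0.79 and 0.45 in V5, an 18.3-fold difference (log2 fold change 4.19 ± 0.67, adjusted p = 0.0489). The call of STL1 was lost when any of the 4 samples was left out (adjusted p 0.0669 to 0.184), and its sign stayed the same. GUT1, the glycerol kinase, gave 4.23 and 4.12 in V5.TM6*P against 1.35 and 1.85 in V5 (5.94-fold, log2 fold change 2.57 ± 0.26, adjusted p = 0.0121). The next enzyme of the route, the mitochondrial glycerol-3-phosphate dehydrogenase GUT2, gave 3.13 and 3.34 in V5.TM6*P against 1.70 and 1.87 in V5 and did not pass (log2 fold change 1.45 ± 0.32, adjusted p = 0.101). AQY2, a water channel gene, gave 1.37 and 1.94 in V5.TM6*P against -0.27 and -0.26 in V5 (3.78-fold, adjusted p = 0.0482), and 0.0902 was its adjusted p in the authors' table.

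Proline uptake and oxidation were the next pair. PUT4, the proline permease, stood at 2.20 and 1.36 in V5.TM6*P against -1.85 and -1.10 in V5 (9.56-fold, log2 fold change 3.26 ± 0.40, adjusted p = 0.0239). PUT1, the mitochondrial proline oxidase, was dim in both strains, with -0.51 and -1.05 in V5.TM6*P against -4.44 and -4.73 in V5 (14.0-fold, log2 fold change 3.80 ± 0.40, adjusted p = 0.0121). One array of each V5 sample was at the floor for PUT1, at -7.48 and -7.25, while the other arrays gave -1.39 and -2.20. With values at or under 0 left out instead of floored, the log2 fold change of PUT1 was 2.45 (adjusted p = 0.296), and in the authors' table it was 1.09 (adjusted p = 0.295), so the size of its rise rests on the floor. HXT15, a minor member of the hexose transporter family with near-identical relatives, had the same limit: it gave -0.50 and 0.04 in V5.TM6*P against -2.79 and -4.39 in V5 (10.3-fold, adjusted p = 0.0482), 1 V5 array was at the floor, and the log2 fold change of 3.36 became 0.45 in the authors' table (adjusted p = 0.704).

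The list of genes for carbon sources other than glucose took in STL1, GUT1, PUT1 and PUT4, and these 4 of its 16 named probes rose while none fell (0.3% of all probes were called higher). In 14 of the 16 both V5.TM6*P samples lay above both V5 samples, against 20.8% of all probes and 40.2% of named probes, and the median log2 fold change was 1.93, against -0.05 over all probes and 0.14 over all named probes. The largest differences that missed the threshold were those of ATO2, of a family of putative ammonium exporters, at 3.91 ± 0.65 (adjusted p = 0.0548), and of JEN1, the lactate permease, at 3.32 ± 0.83 (adjusted p = 0.143). ATO2 gave 2.08 and 1.37 in V5.TM6*P against -1.25 and -3.10 in V5. CYB2, the lactate dehydrogenase that feeds cytochrome c, gave 4.94 and 4.20 in V5.TM6*P against 2.67 and 2.47 in V5 (log2 fold change 2.00 ± 0.45, adjusted p = 0.108). Samples of opposite strains did not overlap in any of these genes, and the V5 samples differed more from each other than the V5.TM6*P samples in ATO2 and JEN1.

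Among enzymes of the TCA cycle 3 of 16 named probes rose and none fell, where 0.3% of all probes were called higher. FUM1, fumarase, averaged 3.66 ± 0.11 in V5.TM6*P and 1.71 ± 0.32 in V5 (SD, n = 2 each; 3.86-fold, log2 fold change 1.95 ± 0.25, adjusted p = 0.029). SDH1, the flavoprotein subunit of succinate dehydrogenase, gave 4.90 and 4.07 in V5.TM6*P against 2.53 and 2.42 in V5 (4.02-fold, adjusted p = 0.0482). KGD2, the transsuccinylase of the 2-oxoglutarate dehydrogenase complex, gave 3.12 and 3.08 in V5.TM6*P against 1.31 and 1.59 in V5 (3.15-fold, adjusted p = 0.0426). All 3 act on the stretch of the cycle between 2-oxoglutarate and malate, but other named genes of that stretch did not pass. ACO1 and IDH1, which act before it, had log2 fold changes as large as the 1.66 of KGD2, also without passing. Aconitase ACO1 gave 1.68 ± 0.34 (adjusted p = 0.0948) and the isocitrate dehydrogenase subunit IDH1 1.68 ± 0.66 (adjusted p = 0.33). In 15 of the 16 TCA cycle probes both V5.TM6*P samples lay above both V5 samples, against 20.8% of all probes and 40.2% of named probes. The median of the list was 1.26.

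Gluconeogenesis and the glyoxylate cycle, which build sugars from smaller carbon compounds, had 9 named probes, and all 9 had a log2 fold change above 0 with a median of 2.00. Of all 6330 probes 2932 were above 0, and of the 1052 named probes 568. Its 2 calls were MDH2 and SFC1, where 0.3% of all probes were called higher. SFC1 was counted among the mitochondrial carriers too. MDH2, the cytosolic malate dehydrogenase, rose with SFC1: it stood at 1.64 and 0.92 in V5.TM6*P against -0.78 and -0.65 in V5 (3.99-fold, log2 fold change 2.00 ± 0.32, adjusted p = 0.0483). Its single V5 arrays lay far apart, at 0.54 and -2.10 for 10.5 g/L and at -1.37 and 0.08 for 7.4 g/L. PCK1, phosphoenolpyruvate carboxykinase, gave 1.52 and 1.37 in V5.TM6*P against -2.69 and -0.85 in V5, and its log2 fold change of 3.22 ± 0.57 missed the threshold (adjusted p = 0.0684). FBP1, fructose-1,6-bisphosphatase, gave 0.37 and 0.68 in V5.TM6*P against -1.38 and -5.02 in V5, a pair so far apart that the log2 fold change of 3.72 had an SE of 0.97 (adjusted p = 0.164). For FBP1 too, 1 V5 array had a value at the floor, so the size of this difference is uncertain. ICL1, isocitrate lyase, did not separate the strains, with 1.61 and 1.85 in V5.TM6*P against 1.49 and 1.80 in V5.

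Proteins of the outer mitochondrial membrane and a few other genes completed the rises. OM45 gave 4.22 and 3.63 in V5.TM6*P against 1.42 and 1.36 in V5 (5.80-fold, log2 fold change 2.54 ± 0.31, adjusted p = 0.0239). OM14 gave 1.91 and 1.63 in V5.TM6*P against -0.15 and -0.11 in V5 (3.72-fold, adjusted p = 0.0293). Both encode outer-membrane proteins, and their V5 samples nearly coincided, although the single V5 arrays of OM14 ran between -0.69 and 0.39. SNZ2, of the vitamin B6 synthesis family, gave 4.81 and 4.13 in V5.TM6*P against 1.99 and 2.57 in V5 (4.56-fold, adjusted p = 0.0426), and since it has a near-identical copy, SNZ3, the signal cannot be ascribed to SNZ2 alone. AIM33 gave 3.38 and 3.00 in V5.TM6*P against 0.76 and 1.54 in V5 (4.12-fold, adjusted p = 0.0435). IRS4, which with KGD2 fell outside the 15 largest rises and is given to complete the 17, gave 4.33 and 3.97 in V5.TM6*P against 2.82 and 2.75 in V5 (2.58-fold, adjusted p = 0.0483).

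The 3 named genes that fell were 2 pyruvate decarboxylase genes and a peroxiredoxin gene. PDC5 stood at 0.63 and 0.84 in V5.TM6*P against 4.00 and 4.27 in V5, 0.0947-fold (log2 fold change -3.40 ± 0.43, adjusted p = 0.0259). PDC1, the main pyruvate decarboxylase in yeast growing on glucose, gave 1.74 and 2.62 in V5.TM6*P against 4.62 and 4.86 in V5, 0.17-fold (log2 fold change -2.56 ± 0.34, adjusted p = 0.029). PDC1 and PDC5 are close relatives, so cross-hybridization between them cannot be separated from a fall of both. The remaining 4 named probes of the list from pyruvate to ethanol and acetate did not pass, with log2 fold changes up to 0.84 for the acetaldehyde dehydrogenase gene ALD6 (adjusted p = 0.445). AHP1, which encodes a thiol-specific peroxiredoxin, gave 2.01 and 2.38 in V5.TM6*P against 4.71 and 4.54 in V5, 0.185-fold (log2 fold change -2.43 ± 0.27, adjusted p = 0.0169). It was the only call among 11 named genes of oxidative defence, whose median was -0.59. The thioredoxin gene TRX2 stood at -1.17 (adjusted p = 0.101), the catalase gene CTT1 at -1.24 (adjusted p = 0.297), and the flavohaemoglobin gene YHB1 at 1.30 (adjusted p = 0.0767).

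No probe on the lists of the respiratory chain, the ATP synthase or the ribosomes was called, although most members of each list had the same sign. The succinate dehydrogenase genes also belong to the respiratory chain but were counted in the TCA cycle list, where SDH1 was called. All 31 named probes of the respiratory chain had a log2 fold change above 0, with a median of 0.70, and 15 had an unadjusted p under 0.05. Over all 1052 named probes 568 were above 0 and 399 had an unadjusted p under 0.05, 221 of them higher and 178 lower. Over all 6330 probes 2932 were above 0 and 851 had such a p, 410 of them higher and 441 lower. In 27 of the 31 both V5.TM6*P samples lay above both V5 samples (87.1%), against 20.8% of all probes and 40.2% of named probes. NDI1, the internal NADH dehydrogenase, had the largest difference, with 2.77 and 3.47 in V5.TM6*P against 0.40 and 1.09 in V5 (log2 fold change 2.38 ± 0.43, adjusted p = 0.074). All 19 named probes of the ATP synthase were above 0 with a median of 0.79, 17 of them without overlap of the samples and 12 with an unadjusted p under 0.05. The catalytic-sector subunit gene ATP1 gave 5.49 and 5.71 in V5.TM6*P against 4.16 and 3.92 in V5 (1.56 ± 0.30, adjusted p = 0.0886), and TIM11, a subunit of its dimer form, gave 5.10 and 4.87 in V5.TM6*P against 3.63 and 3.63 in V5 (1.35 ± 0.23, adjusted p = 0.062).

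The mitochondrial and cytosolic ribosomes lay on opposite sides of 0. Of 50 named probes for mitochondrial ribosomal proteins 47 were above 0, with a median log2 fold change of 0.60. In 40 of the 50 both V5.TM6*P samples lay above both V5 samples (80%, against 20.8% of all probes and 40.2% of named probes). An unadjusted p under 0.05 was found for 19 of the 50, all higher. Over all named probes it was found for 399 of 1052, 221 of them higher. Of 38 named probes for cytosolic ribosomal proteins 2 were above 0, and in 28 both V5.TM6*P samples lay below both V5 samples (73.7%, against 24.3% of all probes and 31.1% of named probes). Their median was -0.74, and 18 had an unadjusted p under 0.05 on the lower side and 1 on the higher. Over the 1052 named probes these counts were 178 and 221, and over all 6330 probes 441 and 410. RPL43B gave 0.81 and 1.55 in V5.TM6*P against 2.91 and 2.55 in V5 (-1.55 ± 0.30, adjusted p = 0.0886), and RPL29 gave -0.21 and 1.79 in V5.TM6*P against 2.77 and 2.27 in V5 (-1.73 ± 0.64, adjusted p = 0.298). Many cytosolic ribosomal proteins have a second gene with nearly the same sequence, which these probes do not separate. The genes in these lists that carry names were selected by the study on these arrays among others, so the shared sign is a description and not independent evidence.

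**Figure D2:**
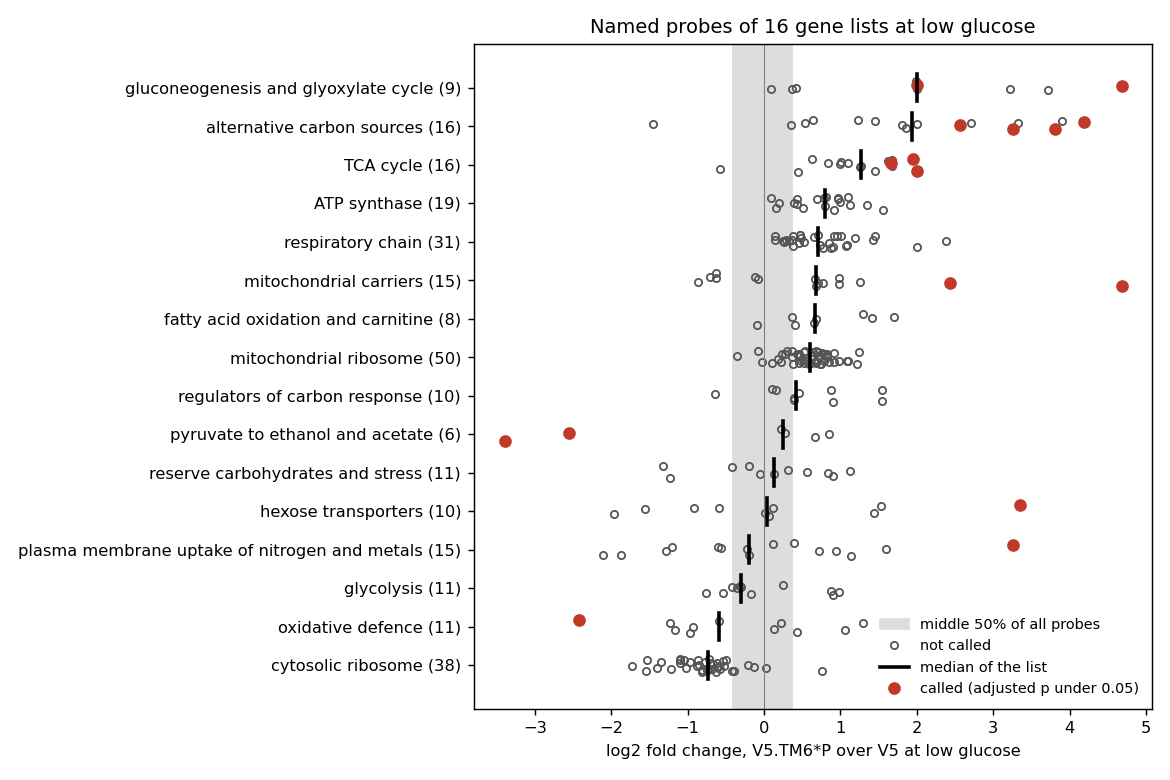
Log2 fold change of V5.TM6*P over V5 at low glucose (horizontal axis) for the named probes of 16 gene lists, with the number of probes in brackets. Each circle is a probe (filled red where the adjusted p is under 0.05), black bars are list medians and the grey band holds the middle 50% of all probes. The medians run between -0.74 for the cytosolic ribosome and 2.00 for gluconeogenesis and the glyoxylate cycle. The 31 probes of the respiratory chain list, which leaves out succinate dehydrogenase, all lie right of 0 without a call.

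Other lists were divided. Glycolysis had 11 named probes, no call, a median of -0.30 and values between -0.76 for CDC19, the main pyruvate kinase gene (adjusted p = 0.412), and 0.99 for the kinase gene EMI2 (adjusted p = 0.244). Reserve carbohydrate and stress genes (11 named probes) had no call and a median of 0.13, and 10 regulators of the carbon response had no call and a median of 0.42. The activator subunit gene HAP4 gave 1.32 and 1.66 in V5.TM6*P against 0.56 and 0.60 in V5 (0.90 ± 0.30, adjusted p = 0.262), whereas CAT8 and MIG2 were dim and their samples overlapped. Of 10 named hexose transporter probes HXT15 was the 1 call, and the median was 0.04. Plasma membrane uptake of nitrogen and metals held PUT4 as its 1 call among 15 named probes. In 5 probes (33.3%) the samples were apart upwards and in 7 (46.7%) downwards. Over named probes these shares were 40.2% and 31.1%, and over all probes 20.8% and 24.3%. The siderophore transporter gene ENB1 was at -1.30 in both V5.TM6*P samples against 0.92 and 0.25 in V5 (-1.88 ± 0.32, adjusted p = 0.062). Fatty acid oxidation and carnitine genes (8 named probes) had no call and a median of 0.66, and the peroxisome biogenesis gene PEX3 gave 4.30 and 4.17 in V5.TM6*P against 3.11 and 2.77 in V5 (1.29 ± 0.27, adjusted p = 0.0968).

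The strain difference at low glucose was then set beside that at mid and high glucose, which rests on other samples of the same cultures. The image names give the array code YA0403 for 3 V5.TM6*P arrays at high glucose and YA0404 for all other arrays. The sample titles give YA0403 throughout. The code was not in the fit, so at high glucose it cannot be fully told apart from the strain. Every value set against high glucose shares this limit. At mid glucose 42 probes were called (0.664%), 36 higher (0.569%) and 6 lower (0.0948%), and at high glucose 165 (2.61%), 113 higher (1.79%) and 52 lower (0.821%), against the 26 at low glucose. The order of low and mid glucose rested on 1 sample: without the 5.6 g/L sample of V5.TM6*P more probes were called at low than at mid glucose. High glucose had the most calls whichever low-glucose sample was left out. The spread of log2 fold changes over all probes was much the same, with an SD of 0.75 at low, 0.72 at mid and 0.79 at high glucose. All 20 named genes called at low glucose had the same sign at mid and high glucose, 14 were called at mid, 16 at high and 14 at both. The 4 called at neither were PUT1, HXT15, SNZ2 and AHP1. PDC5 gave -3.40 at low, -2.98 at mid and -2.66 at high glucose, and SFC1 gave 4.68, 4.08 and 4.38 in that order. Across the 1052 named probes the log2 fold changes at low glucose correlated with those at mid glucose at 0.770 and with those at high glucose at 0.727, and across all 6330 probes at 0.294 and 0.248. These correlations are across genes, which are not independent replicates, and the study chose the named probes for a strain difference in these cultures.

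**Figure D3:**
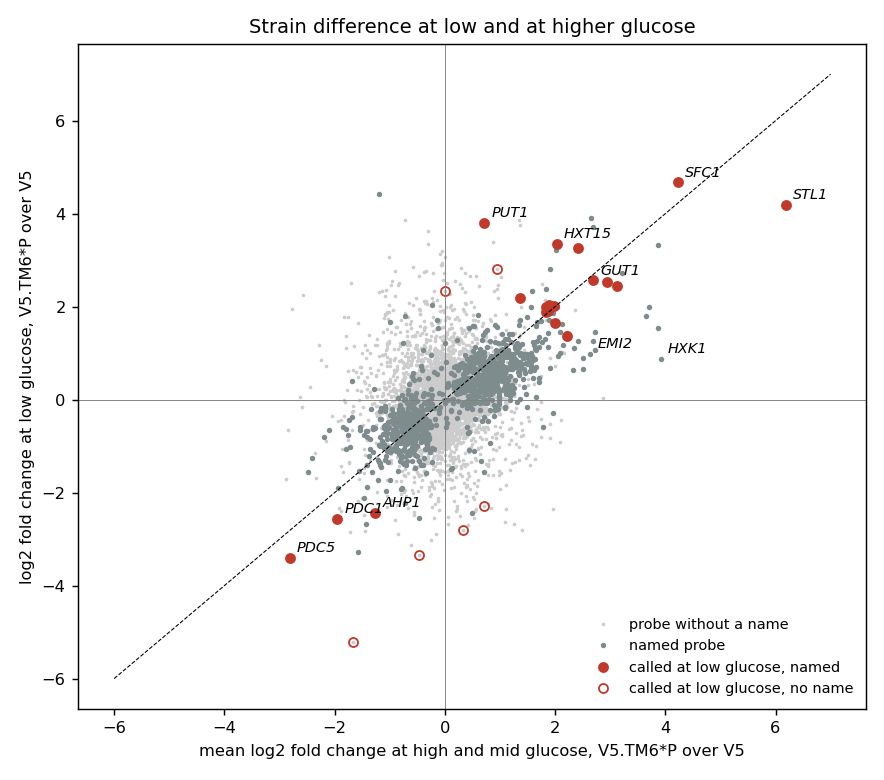
Log2 fold change of V5.TM6*P over V5 at low glucose (vertical axis) against the mean of the log2 fold changes at mid and high glucose (horizontal axis) for 6330 probes. Light dots are probes without a name, darker dots named probes, filled red circles the 20 named and open red circles the 6 unnamed probes called at low glucose; the dashed line marks equality. SFC1 (4.68 at low glucose) lies near the line, HXK1 (0.88) well below it and PUT1 (3.80) above it.

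For some genes with wide strain differences at higher glucose the measured difference was smaller at low glucose. HXK1, a hexokinase gene repressed by glucose, stood at 6.55 and 6.18 in V5.TM6*P against 5.62 and 5.36 in V5, a log2 fold change of 0.88 ± 0.47 at low glucose (adjusted p = 0.447), beside 3.33 at mid (adjusted p = 0.0234) and 4.51 at high glucose (adjusted p = 0.00482). Its level at low minus that at higher glucose was -0.13 in V5.TM6*P (adjusted p = 0.983) and 2.92 in V5 (adjusted p = 0.0921). The glucokinase gene GLK1 gave 0.90 at low, 1.80 at mid and 3.21 at high glucose, and EMI2 gave 0.99, 2.06 and 3.22. The mannitol dehydrogenase family gene DSF1 gave 1.80, 3.40 and 3.91. The change in the strain difference was -3.04 ± 0.58 for HXK1, -1.61 ± 0.41 for GLK1, -1.65 ± 0.38 for EMI2 and -1.85 ± 0.46 for DSF1, and in none of these genes did it pass the test (adjusted p 0.451, 0.558, 0.51 and 0.555). These genes were picked after their values had been seen.

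**Figure D4:**
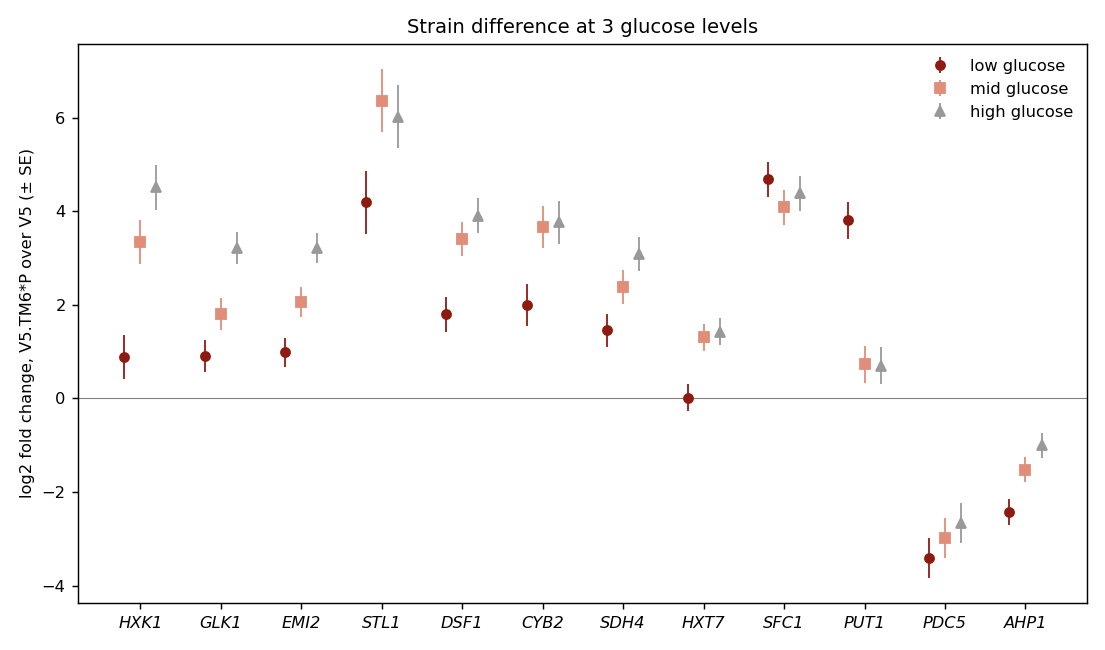
Log2 fold change of V5.TM6*P over V5 (vertical axis, ± SE of the fit) at low, mid and high glucose for 12 genes picked after their values had been seen. HXK1, GLK1, EMI2 and DSF1 have their smallest difference at low glucose, SFC1 and PDC5 differ by more than 2 log2 units at each level, and PUT1 stands apart at low glucose (3.80) with 2 V5 arrays at the floor.

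For the change of the strain difference between higher and low glucose, 1 of 6330 probes was called (0.0158%), a probe without a name. No named gene passed (433 probes had an unadjusted p under 0.05), and the 20 named calls had adjusted p values between 0.351 and 0.991 for this change. Of the 269 distinct probes in the gene lists, 154 had a smaller absolute strain difference at low glucose than at both higher levels (57.2%), against 50.4% of all named probes and 35.5% of all probes. The study had chosen the named genes for a strain difference, 130 of them without the low-glucose samples. Such a choice can favour larger differences at higher glucose, so these shares and the list medians that follow are descriptions only. The median log2 fold change of the respiratory chain list was 0.70 at low, 1.14 at mid and 1.29 at high glucose, that of the ATP synthase 0.79, 1.15 and 1.24, and that of the TCA cycle 1.26, 1.60 and 1.96. For gluconeogenesis the medians were 2.00, 1.93 and 1.78, and for the cytosolic ribosome -0.74, -0.57 and -0.72.

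Within each strain few probes separated low from higher glucose. In V5.TM6*P 1 probe was called (0.0158%), and 374 had an unadjusted p under 0.05. In V5 3 probes were called (0.0474%), all lower at low glucose, and 634 had an unadjusted p under 0.05. PUT1 was the one among the 3 with a name, at -3.40 (adjusted p = 0.0188), with the floored V5 arrays described above. The median change of the respiratory chain list between higher and low glucose was -0.05 in V5.TM6*P and 0.49 in V5, and that of the TCA cycle list 0.17 in V5.TM6*P and 0.49 in V5. The medians of the ATP synthase list were 0.01 in V5.TM6*P and 0.38 in V5. Differences between strains in these medians were not tested as lists.

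The 6 called probes without a name were dim, with no low-glucose sample above -0.72 in either strain. Their absolute log2 fold changes lay between 2.30 and 5.20, 2 of them rose in V5.TM6*P while 4 fell, and 5 of the 6 had an array at the floor. One of those that fell was called in the opposite direction at high glucose, with a log2 fold change of -2.30 at low and 2.04 at high glucose (adjusted p = 0.0285), and 3 of the 6 kept their sign at both levels. Of these 6 calls 0 remained in the authors' values (limma), against 17 of the 20 named calls. The named genes had been chosen by the study for a strain difference in the authors' values, so this contrast is no independent check. In the authors' values the log2 fold change of -5.20 became -0.02, and 2 of the 6 unnamed calls changed sign, to 0.43 and -0.32. The calls also leaned on single samples. Without the 13.5 g/L sample of V5.TM6*P 3 probes were called and SFC1 was the one of the 26 that remained, and without its 5.6 g/L sample 69 were called, 19 of the 26 among them. Without the 10.5 g/L sample of V5 18 were called, among them 5 of the 26 (GUT1, HXT15, PUT1 and SFC1 with names), and without its 7.4 g/L sample 17 were called, among them 8 of the 26.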

How the data were processed

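RNA was taken from V5.TM6*P and V5 cultures, amplified, labelled with 33P and hybridized to filter arrays, 2 per RNA sample. The deposited scanner files give spot and local background median intensity on a linear scale, which the authors measured with imaging software. The authors' table of background-subtracted intensity, whose scaling is not given in the sources used here, served as an alternative. From the scanner files, net intensity was computed as spot minus background, floored at 0.1 and put on the log2 scale. Spots of a probe were averaged, each array was centred on its median, and a sample's 2 arrays were averaged. Dim probes near the floor are therefore the least certain. Precision is limited by how few arrays there are.

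Of 6330 probes, 1052 were named by matching values computed from the authors' table to the study's gene tables and by print order, which follows reading frame names. The values of 841 matched alone, and 987 were found in the RefSeq gene table. In all 5395 probes were put on a chromosome. The members, gene lists and tests were chosen with earlier results of these data known.

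The strains were compared with limma 3.58.1 in R 4.3.3 (lmFit, eBayes; 6 groups of 2 RNA samples, 6 residual degrees of freedom, Benjamini-Hochberg adjustment over all probes, threshold 0.05). Replicate numbers were sampling points, which differ in glucose between the strains. Named genes were the up to 15 largest called changes in each direction without overlap of the samples, the deleted transporter genes, and the 2 to 4 largest of each list. Alternatives changed the source, floor, background correction, normalization, filter, variance model, fit, covariate, chromosome centring and samples. The script was tested on simulated data. Python 3.11.15 with numpy 2.4.6, pandas 2.3.3 and matplotlib 3.10.9, and statmod 1.5.0, were also used. One member of the TCA cycle list is not reported here by name.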

Additional observations from a re-analysis of the deposited data

Results flagged for a closer look

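One probe without a gene name, placed on chromosome IX by print order, was called for a change of the strain difference between higher and low glucose (-3.12 ± 0.31, limma adjusted p = 0.0328). It stood at -4.42 and -4.31 in V5.TM6*P at low glucose, against -1.61 and -1.53 in V5, and between -1.47 and -0.92 in V5.TM6*P at higher glucose. It was dim, with a net signal of 8.7% of background in V5.TM6*P and 32.2% in V5 at low glucose, and 2 of the 4 V5.TM6*P arrays had a value at the floor. In the authors' table the same change was 0.08 (adjusted p = 0.992).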

How the results depend on the processing

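The 20 named calls kept their sign under all 18 alternatives in which they had a value (17 fixed at the start, and 1, leaving out chromosome X, chosen after seeing the data). The log2 fold changes could not move with a variance trend, 4 groups, a block by sampling point or a random effect. Neither could they with only the 4 low-glucose samples or without chromosome X. Leaving out a sample could not reverse a sign, since the samples of the strains did not overlap in any call. The sign was therefore free to change only with source, background correction, normalization, covariate or chromosome centring, and with the floor for PUT1 and HXT15. These were the 2 named calls with an array at the floor. For the source, the study had chosen all 20 named genes by a strain difference in the authors' values. A kept sign there is no independent check. Over all 18 alternatives, 252 values stayed past the threshold and 107 did not. With the sampling point number as a replicate block, 0 probes were called at low glucose (limma; 754 with an unadjusted p under 0.05), 0 higher, 0 lower, 0 at least 2-fold, and 0 for the change between glucose levels, at high and mid glucose and within each strain. Over all probes, samples of the same number shared little of their deviations from the group means (correlations 0.046, 0.047 and 0.027). With 2 samples per group these correlations cannot decide whether the numbers pair the samples. With only the 4 low-glucose samples in the fit 0 were called in each count at low glucose, and 578 had an unadjusted p under 0.05.

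Counts that moved by over 1.5 times are given in the order low glucose (higher, lower, at least 2-fold), change between glucose levels, high, mid, within V5.TM6*P and within V5, where the values above were 26 (19, 7, 26), 1, 165, 42, 1 and 3. The authors' table gave 74 (54, 20, 74), 0, 329, 164, 0 and 6. Leaving out dim probes gave 76 (50, 26, 76), 0, 296, 148, 0 and 6. A variance trend gave 155 (88, 67, 137), 3, 455, 237, 0 and 36. All 24 arrays with the RNA sample as a random effect gave 222 (125, 97, 151), 2, 586, 323, 6 and 90. Normexp with quantile normalization gave 218 (139, 79, and 37 at least 2-fold), 0, 525, 285, 0 and 49. With 4 groups 57 were called (39, 18, 57) and 0 for the change. A floor of 1 gave 0 for the change, 81 at mid and 0 within each strain, and no floor gave 0, 87 and 0 within each strain. With glucose as a covariate 0 were called for the change. Chromosome medians subtracted gave 12 higher, and quantile normalization alone 29 higher. Of the 26 calls, 17 remained in the authors' table (HXT15, PUT1 and AQY2 were lost among named genes), 19 with normexp, 19 without a floor, 20 without dim probes and 25 with quantile normalization.

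Leaving out 1 of the 4 low-glucose samples, with the lone sample assumed to vary like the other groups, gave 3 to 69 calls at low glucose, 1 to 17 higher, 1 to 53 lower, 3 to 69 at least 2-fold, 0 to 28 for the change, 101 to 123 at high, 18 to 39 at mid, 1 to 40 within V5.TM6*P and 2 to 16 within V5. The flagged probe without a name reversed to 0.0815 in the authors' table and ranged between -4.82 and 0.0815. The cause of these movements was not tested. Signal near background, with a median net intensity per array of 12.2 to 19.6, limits dim probes most. The search of promoter sequences was not run.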

Other observations

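Among named probes 57 had an adjusted p under 0.1 at low glucose, 40 higher and 17 lower in V5.TM6*P. Genes among them that the text has not described were picked after their values had been seen and are given as values. ARI1, an NADPH-dependent aldehyde reductase gene, stood at -1.37 and -0.07 in V5.TM6*P against 3.10 and 2.00 in V5 (log2 fold change -3.27 ± 0.54, adjusted p = 0.0548). SNZ3, the near-identical copy of SNZ2, gave 2.48 and 2.29 in V5.TM6*P against 0.39 and 0.97 in V5 (1.71 ± 0.28, adjusted p = 0.0548). AMS1, the vacuolar alpha-mannosidase gene, gave -1.25 and -1.46 in V5.TM6*P against -7.19 and -4.37 in V5 (4.43 ± 0.84, adjusted p = 0.0799), where 3 of the 4 V5 arrays had a value at the floor, and its log2 fold change was -2.15 at mid and -0.24 at high glucose.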
